A study of Mus musculus with 6 samples.

Results

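The SLAM family was followed here as 8 genes: the 7 receptor genes Slamf1, Slamf6, Ly9, Cd84, Cd48, Cd244 and Slamf7, and Sh2d1a, which encodes the adaptor SAP. Members were the transcript clusters, the array's unit for a gene, whose platform annotation carries one of these symbols. Each gene had 1, which gave 8 of the 23410 annotated clusters tested, and the annotation calls Cd244 by its newer symbol Cd244a. Naive female mice aged 8 weeks supplied CD4+TCRB+ cells sorted from axillary, brachial and inguinal lymph nodes. The fathers of the 3 B6-ChrYSJL pools carried the Y chromosome (ChrY) of SJL on the C57BL/6J background, and the 3 B6 pools were wild type on that background. Each pool held the nodes of 5 mice and went onto 1 Affymetrix Mouse Gene 1.0 ST array. Daughters inherit no ChrY, so both groups shared the C57BL/6J label for everything they carried, and the strain name states the sire's ChrY.

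SLAM receptors are immunoglobulin-like proteins by which blood cells touch each other. Most of them bind their own kind on the neighbouring cell, whereas CD48 and 2B4 bind one another. Most of the receptors have tails with tyrosine motifs that recruit SAP, and SAP brings in the kinase Fyn, whereas CD48 is held by a lipid anchor and has no such tail. The pathway is known for the help that T cells give to B cells in germinal centers and for the development of natural killer T cells. All 7 receptor genes lie side by side on chromosome 1, in the order Cd244, Ly9, Slamf7, Cd48, Slamf1, Cd84 and Slamf6, and Sh2d1a lies on ChrX. This stretch of chromosome 1 is known to differ between common inbred strains of mice, and the genes on either side of it were therefore measured as well.

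Before the members, the arrays were checked as a set. Their medians lay between 6.41 and 6.44 on the log2 scale and they correlated at 0.995 to 0.996 with each other across the tested transcripts. Of the markers of the sorted cells, Cd4 averaged 11.5 and the CD3 chain gene Cd3e 12.5 in both groups. Background was set at 5.98, below which 95% of the array's 1210 olfactory or vomeronasal receptor transcripts lay. Differences are B6-ChrYSJL minus B6 on the log2 scale, fitted with limma over all 23410 transcripts with the Benjamini-Hochberg false discovery rate (FDR). In that comparison 4 transcripts (0.0171%) passed an FDR of 0.05, and 2484 (10.6%) had an unadjusted p under 0.05. The paper, with its own linear model, reports no differentially expressed transcript at that FDR.

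No SLAM family transcript passed an FDR of 0.05. The 8 adjusted p values in limma ran from 0.400 for Ly9 to 0.970 for Cd84. At an unadjusted p under 0.05 there was 1 of 8, Ly9, beside the 10.6% of all transcripts. Of the 8 differences 6 were below 0 and 2 above, with a median of -0.050, against -0.0036 over all tested transcripts. The median absolute difference was 0.11, against 0.08 over all. The 95% confidence intervals of the 8 differences lay between -0.44 and 0.36, and 7 of the 8 held 0. Precision is limited by the 6 arrays, and the intervals leave room for differences of up to 0.44 on the log2 scale.

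**Figure D1:**
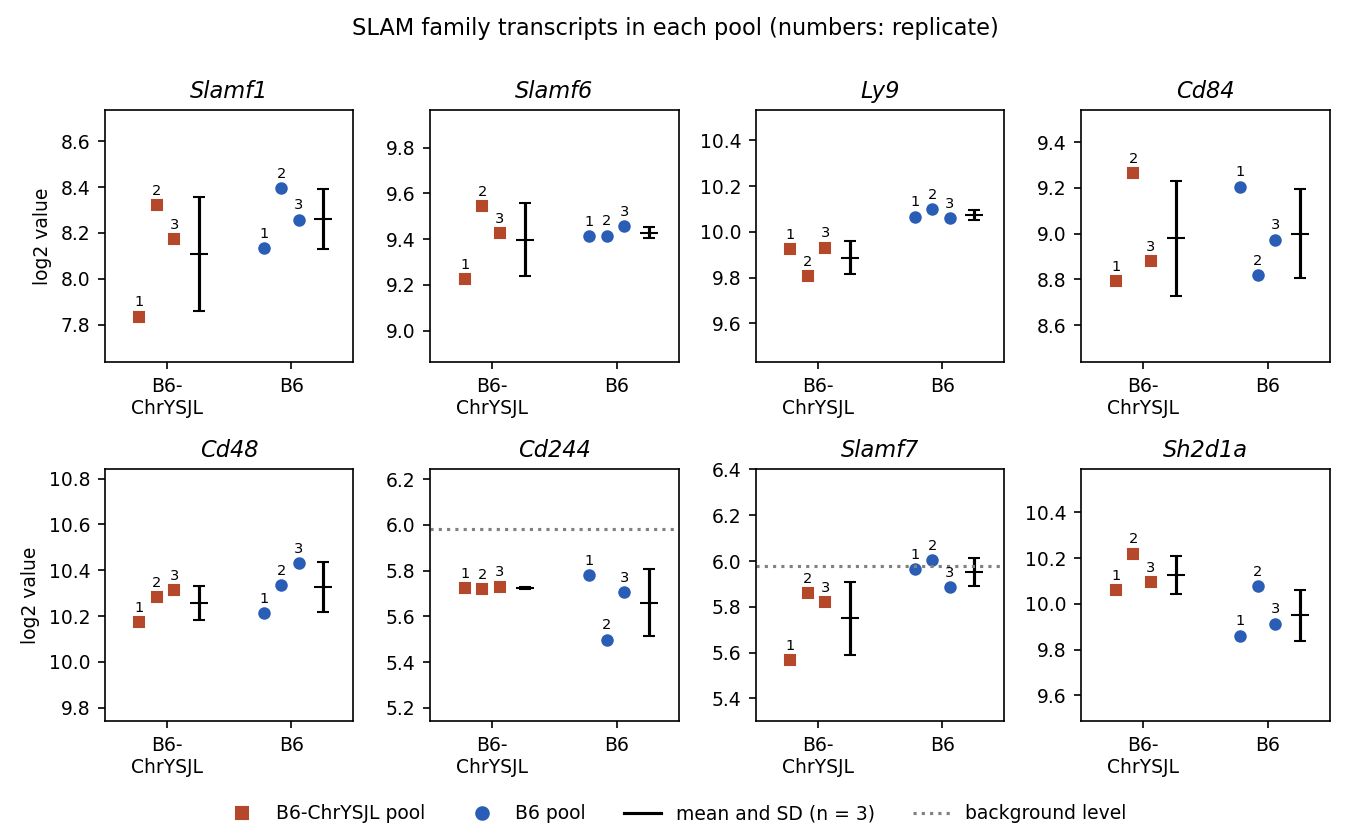
Log2 values (vertical) of the 8 SLAM family transcripts, with B6-ChrYSJL pools as squares and B6 pools as circles, numbered by replicate; the black mark and bar give the mean and SD of 3 pools, and every panel spans 1.1 log2 units. Ly9 and Slamf7 do not overlap between the groups, and Slamf7 and Cd244 lie around or below the dotted background level of 5.98.

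Ly9 (transcript cluster 10360158) encodes CD229, a receptor that binds itself on another cell and is carried by T and B cells. Its log2 values were 9.93, 9.81 and 9.93 in B6-ChrYSJL pools and 10.07, 10.10 and 10.06 in B6 pools. All 3 B6-ChrYSJL pools lay below all 3 B6 pools, and 9.42% of tested transcripts had this pattern. The difference was -0.19 (standard error 0.066, 95% confidence interval -0.34 to -0.037, adjusted p = 0.400 in limma), or 0.878 times the B6 level. Among the 16 alternative fits, those that change only the estimate of spread or the set of transcripts, or add a replicate block, return the same difference. Where the difference could move it kept its sign, with -0.21 to -0.15 when a pool was left out. With array weights, median centring or repeated quantile normalization it was -0.20 to -0.18. Its unadjusted p in limma was 0.0206, and with a pool left out it ran from 0.0281 to 0.0647, going past 0.05 without B6-ChrYSJL replicate 2 (0.0647) and without B6 replicate 2 (0.0580).

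Slamf1 (10351667), which encodes CD150, the founding member of the family and a co-stimulator of T cells, spread more across pools than any other member. It read 7.83, 8.32 and 8.17 in B6-ChrYSJL pools and 8.13, 8.40 and 8.26 in B6 pools. The groups overlapped, and replicate 1 of B6-ChrYSJL was the lowest of the 6 arrays. The difference was -0.15 (standard error 0.13, adjusted p = 0.704 in limma). Without that pool it was -0.015, while without B6-ChrYSJL replicate 2 it was -0.26 and without B6 replicate 2 it was -0.086.

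Cd84 (10351679) encodes SLAMF5, another receptor that binds itself, known for the lasting contact between T and B cells. Its values were 8.79, 9.27 and 8.88 in B6-ChrYSJL pools, against 9.20, 8.82 and 8.97 in B6 pools. High and low pools occurred in both groups, with an SD of 0.25 in B6-ChrYSJL and 0.19 in B6 (n = 3 each). The difference of -0.020 had a standard error of 0.14, the widest of the family, and an adjusted p of 0.970 in limma. Slamf6 (10351691), which encodes Ly108, was 9.23, 9.54 and 9.43 in B6-ChrYSJL pools and 9.41, 9.42 and 9.46 in B6 pools. The B6-ChrYSJL pools held both the lowest and the highest of its 6 values, with an SD of 0.16 in B6-ChrYSJL and 0.024 in B6. Its difference was -0.030 (standard error 0.088, adjusted p = 0.926 in limma). Ly108 is known to exist as isoforms that differ between strains, and a transcript cluster sums over isoforms.

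Cd48 (10351658), the membrane-anchored ligand of 2B4 that also binds CD2 in mice, read 10.17, 10.28 and 10.31 in B6-ChrYSJL pools. In B6 pools it read 10.21, 10.33 and 10.43. The groups overlapped and the difference was -0.070 (standard error 0.079, adjusted p = 0.787 in limma). It was -0.028 without B6-ChrYSJL replicate 1, -0.13 without B6 replicate 1 and -0.017 without B6 replicate 3. Cd2 itself averaged 12.0 in both groups (difference -0.0028, standard error 0.06).

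The other partner of CD48, 2B4, is best known from natural killer cells. Its gene Cd244 (10351644) stayed below background on all 6 arrays, with 5.72, 5.72 and 5.73 in B6-ChrYSJL pools and 5.78, 5.50 and 5.70 in B6 pools, and the groups overlapped. Slamf7 (10360173) encodes CRACC, a receptor of natural killer and plasma cells. It read 5.57, 5.86 and 5.82 in B6-ChrYSJL pools and 5.96, 6.00 and 5.89 in B6 pools, and only B6 replicate 2 exceeded background. The groups did not overlap, as for Ly9, so that 2 of the 8 members were of this kind, beside 17.1% of all tested transcripts in either direction. The Slamf7 difference was -0.20 (standard error 0.09, adjusted p = 0.476 in limma), and -0.11 without B6-ChrYSJL replicate 1. At a level near background the size of this difference is uncertain.

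Sh2d1a (10599411), the adaptor through which most of these receptors signal, was the member with the highest difference. It read 10.06, 10.22 and 10.10 in B6-ChrYSJL pools, against 9.86, 10.08 and 9.91 in B6 pools. Replicate 2 of B6 lay among the B6-ChrYSJL pools, and the other B6 pools lay below them. The difference was 0.17 (standard error 0.08, 95% confidence interval -0.011 to 0.36, adjusted p = 0.491 in limma), or 1.13 times the B6 level. It ranged from 0.13 to 0.24 with a pool left out. Each receptor above background had a difference below 0, unlike Sh2d1a, but among these and Sh2d1a only the interval of Ly9 left out 0. An opposite sign of adaptor and receptors is therefore not established. Among the alternative fits that could move the difference, the sign turned in 4 for Cd84 and in 1 for Slamf6. Cd244, the receptor below background on all arrays, differed by 0.064 (standard error 0.083).

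**Figure D2:**
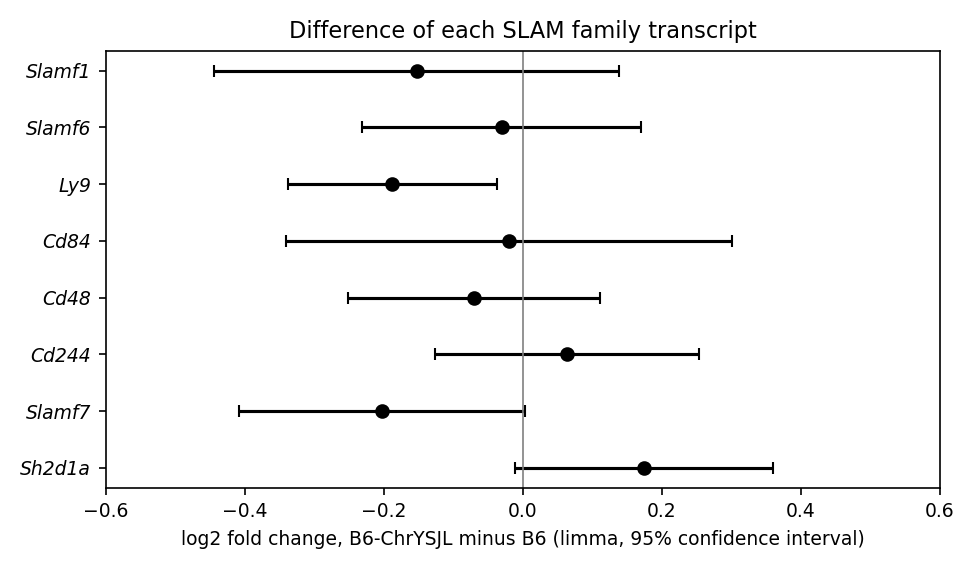
Log2 fold change, B6-ChrYSJL minus B6 (horizontal), of each SLAM family transcript, with limma's 95% confidence interval as the bar. Only the interval of Ly9, from -0.34 to -0.037, leaves out 0; those of Sh2d1a (-0.011 to 0.36) and Slamf7 (-0.41 to 0.0028) end close to it.

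Pools of 1 group differed among themselves as well. In replicate 1 of B6-ChrYSJL 5 of the 7 receptor transcripts, Slamf1, Slamf6, Cd84, Cd48 and Slamf7, had their lowest value of the 6 arrays. That pool was the lowest array for 15.7% of all tested transcripts and for 18.5% of those above background. Centred on the mean of the 6 arrays, the 7 receptors averaged -0.17 in it, 0.056 and -0.019 in the other B6-ChrYSJL pools, and 0.053, 0.023 and 0.053 in the B6 pools. Cd244, below background, and Ly9 were the receptors that did not have their lowest value there. Among the other genes measured, described further on, those lowest in the same pool were 9 of 18 activated or memory T cell genes, 6 of 14 follicular helper genes, 5 of 15 natural killer T or innate-like genes, 6 of 20 chromosome 1 neighbours and 2 of 21 signaling partners. Of the cell type markers they were 3 of 8 for CD4 T cells, 1 of 2 for CD8 T cells, 3 of 13 for B cells, 0 of 6 for plasma cells, 1 of 6 for natural killer cells and 1 of 11 for myeloid and dendritic cells. B cell markers averaged -0.19 in that pool, 0.22 and 0.31 in the other B6-ChrYSJL pools, and -0.17, -0.10 and -0.064 in the B6 pools, so that for them replicates 2 and 3 of B6-ChrYSJL were the high pools. Their part in the receptor values was not tested. In bulk RNA, fewer cells of a type and less RNA per cell cannot be told apart.

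**Figure D3:**
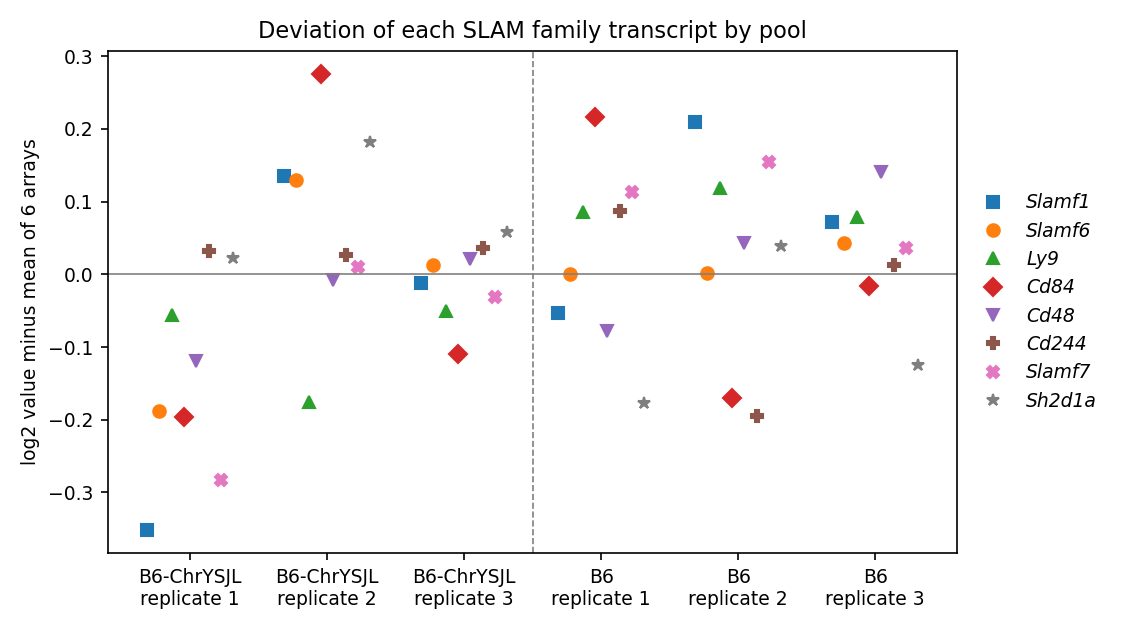
Log2 value minus the mean of the 6 arrays (vertical) for each SLAM family transcript, by pool; the dashed line parts B6-ChrYSJL pools (left) from B6 pools. In B6-ChrYSJL replicate 1 the receptors lie below 0, from Slamf1 at -0.35 to Ly9 at -0.056, with Cd244 (0.032) the exception, while Sh2d1a lies at 0.023.

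Spread across the 6 arrays was widest for Slamf1, Cd84 and Slamf7, with ranges of 0.56, 0.47 and 0.44, against a median of 0.27 for transcripts above background. These ranges exceeded those of 95.6%, 90.4% and 87.1% of such transcripts. Cd48, with 0.26, was close to that median. Slamf7 itself averaged below background in both groups, and the median range over all tested transcripts was 0.30, wider than above background. The promoters of Slamf1, Cd84 and Slamf7, the 3 with the widest ranges, are shown to set the locus out. Their lowest pool was also that of Slamf6 and Cd48. The promoter windows run from 250 bases before to 50 after the start of the gene in RefSeq for GRCm38.p6 and thus as C57BL/6J carries them. They lie at chr1:171766882-171767181 (plus strand) for Slamf1, chr1:171839447-171839746 (plus strand) for Cd84 and chr1:171648950-171649249 (minus strand) for Slamf7. They read 5′ to 3′, with capitals at matches to the short cores of RUNX (TGTGGT), ETS (AGGAAG) and E-box (CAGCTG) factors on either strand.
Slamf1: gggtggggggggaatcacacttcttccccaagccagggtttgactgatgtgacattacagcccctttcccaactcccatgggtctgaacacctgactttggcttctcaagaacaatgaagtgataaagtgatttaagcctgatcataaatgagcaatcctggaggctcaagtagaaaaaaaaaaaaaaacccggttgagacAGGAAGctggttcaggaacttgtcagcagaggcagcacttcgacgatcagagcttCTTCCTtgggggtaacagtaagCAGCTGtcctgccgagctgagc
Cd84: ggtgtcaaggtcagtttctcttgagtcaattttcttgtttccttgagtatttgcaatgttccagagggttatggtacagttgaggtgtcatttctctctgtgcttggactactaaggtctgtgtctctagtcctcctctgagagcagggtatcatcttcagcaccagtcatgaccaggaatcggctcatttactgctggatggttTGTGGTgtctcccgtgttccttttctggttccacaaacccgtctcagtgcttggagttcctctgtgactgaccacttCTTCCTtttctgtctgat
Slamf7: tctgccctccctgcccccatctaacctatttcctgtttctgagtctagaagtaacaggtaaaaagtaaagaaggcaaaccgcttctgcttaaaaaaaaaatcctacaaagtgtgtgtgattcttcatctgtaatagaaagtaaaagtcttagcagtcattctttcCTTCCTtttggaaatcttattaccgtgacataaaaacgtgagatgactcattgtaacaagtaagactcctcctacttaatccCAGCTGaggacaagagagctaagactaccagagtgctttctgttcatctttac

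Each of the 3 held an ETS core, which 35.4% of the 32851 promoters in that table hold. Slamf1 and Slamf7 also held the E-box, present in 16.3% of promoters, and Cd84 the RUNX core, present in 16.8%. None of the matches overlapped another. The GATA-factor core, AGATAA, had no match in these windows when searched in the same way, and nor did a TATA box, written TATAAA (present in 11.2% and 13.6% of promoters). Of the 8 members 6 had a promoter in the table, and Cd48 held 1 RUNX and 1 ETS core while Cd244 and Slamf6 had no match to the 5 cores.

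The genes around the receptors on chromosome 1 had no difference past the test. The 10 measured genes on either side were taken by gene order, and none of these 20 had an unadjusted p under 0.05 in limma (10.6% of all transcripts), nor an FDR under 0.05. Their median difference was -0.035. Itln1, an intestinal lectin gene next to Cd244 and below background, differed by -0.0054 (standard error 0.13), and Vangl2, a planar cell polarity gene next to Slamf6, by 0.16 (standard error 0.07). The smallest p values were those of Nhlh1, a neuronal transcription factor gene below background (-0.24), Vangl2, Nectin4, a cell adhesion gene (0.14), and Pex19, a peroxisome import gene (-0.09). Broadly used genes such as Copa, a coat protein of vesicles (-0.04), and Ncstn, a γ-secretase subunit (-0.05), had standard errors of 0.06 and 0.07. Under the alternative fits between 0 and 2 of the 20 had an unadjusted p under 0.05. These arrays measured levels of RNA and not DNA, so an allele that leaves the level as it is would not show. The paper separately typed DNA of consomic males on a genome-wide marker array and reports finding no donor strain DNA.

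**Figure D4:**
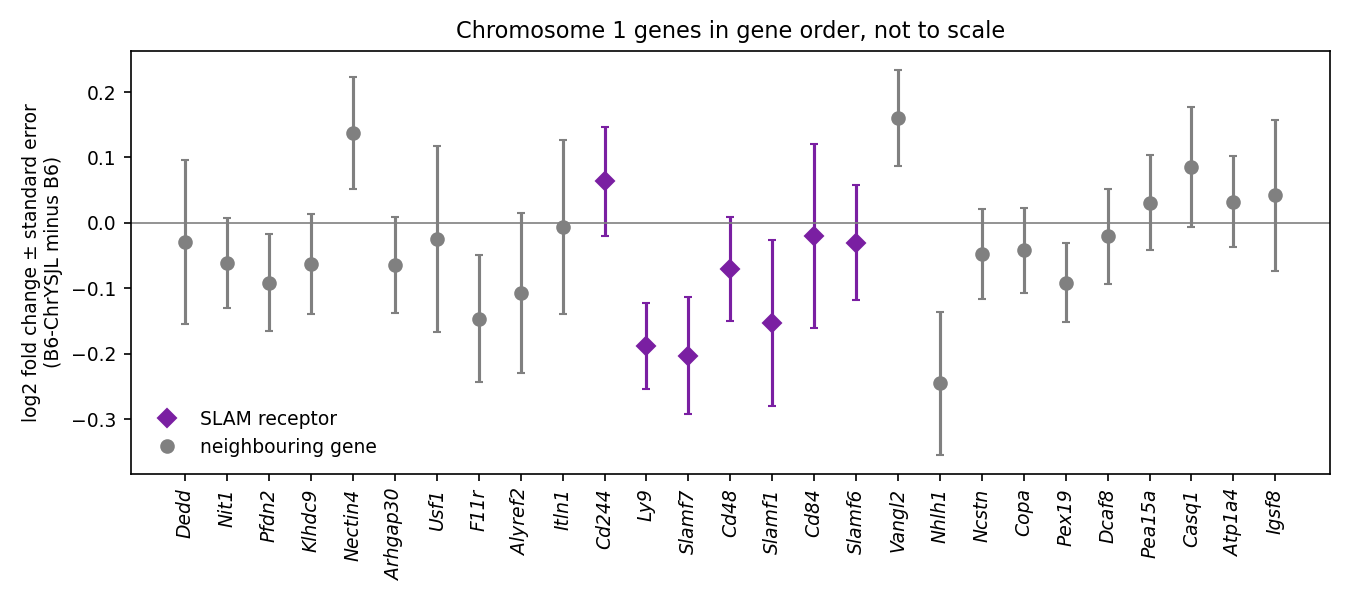
Log2 fold change, B6-ChrYSJL minus B6 (vertical, bars: standard error), of the 7 SLAM receptor transcripts (diamonds) and the 10 measured genes on each side (circles), in gene order and not to scale. Most lie near 0; the lowest among the neighbours is Nhlh1 at -0.24 and the lowest receptor Slamf7 at -0.20.

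The partners of the receptors had no difference past the test either. Of 21 measured genes for SLAM relatives, adaptors and downstream enzymes, none passed an FDR of 0.05 or an unadjusted p under 0.05 in limma, with a median of -0.031, and under the alternative fits between 0 and 2 had an unadjusted p under 0.05. The smallest p values were those of Ptpn11, a phosphatase that binds SLAM tails (-0.15, standard error 0.07), Plcg1, a phospholipase of T-cell receptor signaling (-0.14, standard error 0.07), Rasa1, a GTPase activator (0.13, standard error 0.08), and Csk, the kinase that restrains Src family members (-0.10, standard error 0.07). Fyn averaged 10.1 ± 0.03 in B6-ChrYSJL and 10.2 ± 0.09 in B6 (SD, n = 3 each). The adaptor genes Sh2d1b1 and Sh2d1b2, which encode EAT-2 and ERT, relatives of SAP in natural killer cells, and the distant SLAM relative Slamf8 lay below background in both groups. Slamf9 averaged 6.01 in B6-ChrYSJL and 5.90 in B6, around background.

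Marker genes were also measured for the cell states in which the pathway is known to act. Of 14 follicular helper T cell genes 3 had an unadjusted p under 0.05, all lower in B6-ChrYSJL (5.92% of all transcripts), and none passed an FDR of 0.05 (median -0.14). They were Pdcd1, which encodes the inhibitory receptor PD-1 (-0.26, standard error 0.09), Icos, a co-stimulatory receptor (-0.20, standard error 0.07), and the transcription factor Maf (-0.51, standard error 0.19). Without B6-ChrYSJL replicate 1 the 3 became 0, without B6-ChrYSJL replicate 2 they became 5, and without B6 replicate 3 there was 1. Bcl6, the master regulator of these cells, differed by -0.15 (standard error 0.08), and Cxcr5, their homing receptor, by -0.29 (standard error 0.16). Of 15 natural killer T or innate-like genes 3 had an unadjusted p under 0.05, again lower (median -0.15): Il18r1, an interleukin-18 receptor chain (-0.33, standard error 0.08), Il2rb, an interleukin-2 receptor chain (-0.18, standard error 0.07), and Klrb1b, below background (-0.19, standard error 0.08). There were 5 without B6-ChrYSJL replicate 3 and 1 without B6 replicate 3. Zbtb16, the defining factor of natural killer T cells, averaged 6.17 in both groups (difference -0.0089, standard error 0.11).

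Of 18 activated or memory T cell genes 15 had an unadjusted p under 0.05, all lower in B6-ChrYSJL (5.92% of all transcripts), and none passed an FDR of 0.05 (median -0.32). The alternative fits gave 12 to 15. This list, like the others, was chosen with earlier results of these data known, so its count is a description and not a test. The 15 genes included Ccr2 at -0.83, S100a6 at -0.77, Itgb1, the integrin β1 chain, at -0.34, and Cd44 at -0.26. Icos was counted here and among the follicular helper genes. Of the 8 SLAM family differences 6 had the sign of these genes, Ly9 (-0.19) among them, and those of Cd244 and Sh2d1a did not. A link between the members and these genes was not tested. Of 2 CD8 T cell markers both were lower at an unadjusted p under 0.05 (Cd8a -0.54, Cd8b1 -0.28), their summed log2 level being 14.1 to 14.4 in B6-ChrYSJL and 14.8 to 15.2 in B6. Of 13 B cell markers 3 were higher (4.69% of all transcripts) and 1 lower at that p (median 0.23), a count of 4 that was 9 without B6-ChrYSJL replicate 1 and 1 to 5 in the other alternative fits. The higher ones were the MHC class II chain genes H2-Ab1 (0.64) and H2-Eb1 (0.37) and the B cell transcription factor gene Ebf1 (0.25, below background), and the lower one was Cd72 (-0.20). The B cell markers had a summed log2 level of 82.7 to 89.2 in B6-ChrYSJL and 83.0 to 84.3 in B6, and 4 of the 13 lay below background. Natural killer cell markers (0 of 6 at that p, 4 of 6 below background, sum 32.5 to 33.3 in B6-ChrYSJL and 32.6 to 33.4 in B6), plasma cell markers (2 of 6 lower, Prdm1 and Irf4, with 0 to 3 at that p in the alternative fits, sum 39.4 to 39.6 in B6-ChrYSJL and 39.2 to 40.3 in B6) and myeloid and dendritic markers (1 of 11 higher, Itgax, itself below background, with 0 or 1 at that p in the alternative fits, 7 of 11 below background, sum 64.0 to 65.0 in B6-ChrYSJL and 64.2 to 65.5 in B6) were measured beside them. The part of these cells in the levels of Ly9, Slamf7 and Sh2d1a was not tested. None of 8 CD4 T cell markers had an unadjusted p under 0.05 in limma or an FDR under 0.05, and 2 of 8 had such a p in the unmoderated linear model.

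**Figure D5:**
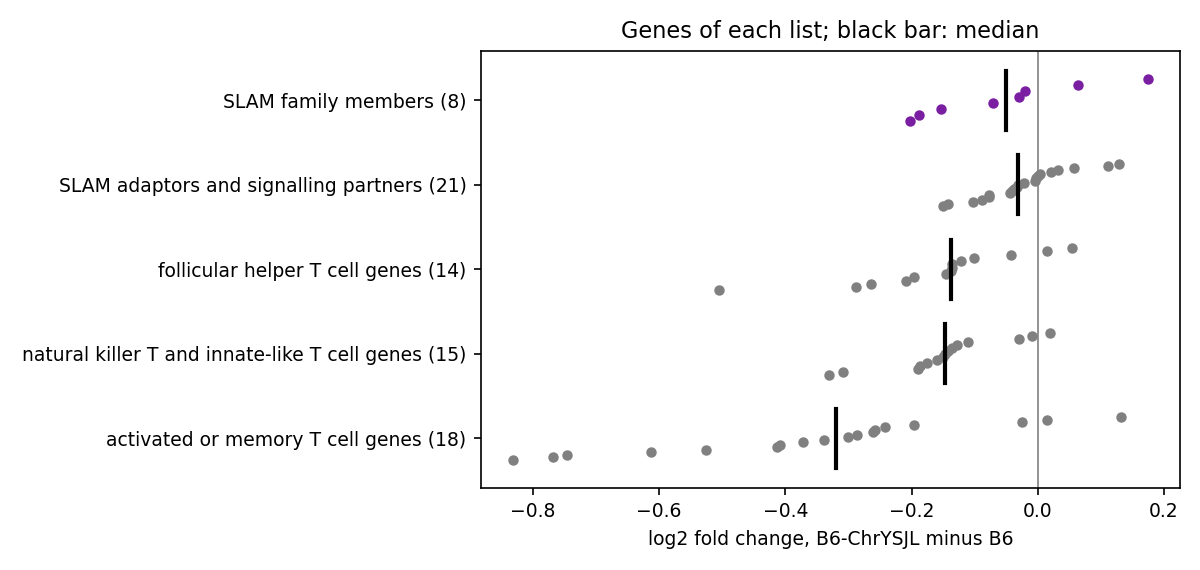
Log2 fold change, B6-ChrYSJL minus B6 (horizontal), of each gene in 5 lists, with the number of genes in parentheses and the median as a black bar. The medians of SLAM family members and of their partners are -0.050 and -0.031, and that of activated or memory genes is -0.32. The members range from -0.20 (Slamf7) to 0.17 (Sh2d1a). The lists were chosen with earlier results of these data known.

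The transcripts whose 6 values ran closest to each member were found among 13495 or 13496 above background, by Pearson's r across the arrays. For Slamf1 they were Oxsr1 and Pip4k2c (r = 0.997 each), for Slamf6 Pcbp2 (0.990) and Dennd4a (0.987), for Ly9 Hyou1 (0.997) and Foxm1 (0.989), and for Cd84 Mtln (0.998) and Pdk1 (0.991). For Cd48 they were Psmd12 (0.996) and Tmx2 (0.984), for Cd244 Sncg (0.986) and Dusp13 (0.979), for Slamf7 Zfand1 (0.992) and Tspan17 (0.985), and for Sh2d1a Lta4h (0.993) and Mcts1 (0.990). No SLAM family member was among the closest 2 of another. With 6 arrays and so many candidates such values are common: between 25 and 57 transcripts exceeded an r of 0.95 for each member.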

How the data were processed

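The authors hybridized amplified cDNA from 50 ng of RNA per pool to the arrays and made 1 log2 value per transcript cluster with RMA (background correction, quantile normalization, median polish) in Partek Genomic Suites. GCOS and the mm9 build appear in the submitters' processing notes. These deposited log2 values were used without further normalization. Platform symbols were updated through RefSeq gene identifiers (GRCm38.p6, also the source of gene order and promoters). Of 35556 clusters, the 23410 with a symbol were fitted with limma 3.58.1 (R 4.3.3, lmFit, eBayes, no block), which gave every p. The fit was also run on simulated data, and the outcome of that run is not reported here. The methods name a linear model, and one without moderation was tried as an alternative.

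The members and gene lists were chosen with earlier results of these data known. Named genes were all members, list genes and neighbours at an unadjusted p under 0.05 or with the smallest p, the nearest neighbours, sort markers, and the 2 transcripts most like each member. Of the activated or memory genes and cell type markers that this covers, only some were named. Cd2, Fyn, Bcl6, Cxcr5, Zbtb16, Copa, Ncstn, and the relatives of Sh2d1a and Slamf1 were named after their values were seen. List genes used the brightest cluster with 1 symbol. Plots come from matplotlib 3.10.9 under Python 3.11.15.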

Additional observations from a re-analysis of the deposited data

How the results depend on the processing

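The number of transcripts past an FDR of 0.05, 4 in limma, was 0 with the unmoderated linear model and over all deposited clusters, 55 with an intensity trend, 13 over transcripts above background, 7 over clusters with 1 symbol, 11 after median centring, 2 after repeated quantile normalization, and 0 to 7 with a pool left out. No SLAM family member was among them under any of these. At an unadjusted p under 0.05 there was 1 member, Ly9; Sh2d1a joined it with an intensity trend, above background and with the replicate number as a block (2 each), and Slamf7 and Sh2d1a after repeated quantile normalization (3). Without B6-ChrYSJL replicate 2 the 1 member was Slamf7, and without B6 replicate 2 it was Sh2d1a. Over all tested transcripts, same-numbered arrays did not deviate together (r = -0.0001 to -0.036). The labels state no pairing, and this correlation cannot settle whether same-numbered pools were prepared together. With the number as a block 3 transcripts passed an FDR of 0.05, and the standard error of Slamf1 was 0.081 instead of 0.13. The sign of Cd84 turned to 0.024 after repeated quantile normalization. With a pool left out Cd84 ranged from -0.16 to 0.083, Slamf6 from -0.10 to 0.056 and Cd244 from -0.018 to 0.12, and the other 5 members kept their sign. The cause of these changes was not tested. Signal near background limits Cd244 and Slamf7.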
